A study of Homo sapiens with 6 samples.

Results

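The transcriptional cyclin-dependent kinases (CDKs) and their cyclins were read from the gene table by symbol, as CDK7, CDK8, CDK9, CDK12, CDK13, CDK19, CCNC, CCNH, CCNT1 and CCNT2. These 10 genes, 6 kinases and 4 cyclins, were all found among the 35993 genes listed. RNA was sequenced from MIA PaCa-2, an established line of human pancreatic carcinoma. The 3 untreated libraries came from cells grown in DMEM with 1% FBS, and the 3 rhCYGB libraries from cells given 4 µM recombinant human cytoglobin in the same medium for 48 h. Cytoglobin is a haem protein of the globin family. The labels name no control protein for the untreated cells and do not say whether the libraries of a group came from separate cultures, so p-values measure only the spread between these libraries. In bulk RNA, a change in every cell and a change in the make-up of the culture cannot be told apart.

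Unlike the CDKs that drive the cell cycle, these kinases act on transcription by RNA polymerase II. CDK7 pairs with cyclin H (CCNH) and MNAT1 in the CDK-activating kinase, which is part of the initiation factor TFIIH and also phosphorylates other CDKs. CDK9 pairs with cyclin T1 (CCNT1) or cyclin T2 (CCNT2) in P-TEFb, which releases paused polymerase into elongation and is held inactive by the 7SK complex. CDK8 or its paralog CDK19 binds cyclin C (CCNC) in the kinase module of Mediator, and CDK12 and CDK13 bind cyclin K and phosphorylate the polymerase tail during elongation.

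The libraries held 34838399 to 42271299 read counts, of which 20936 to 29310 fell on the 10 genes, and no gene had fewer than 1009 counts in any library. Normalised counts are given as CPM, read counts scaled to library size with TMM factors, and levels as FPKM, which also divides by transcript length. Within a group, log CPM correlated at 0.987 or above, while libraries of different groups correlated at 0.929 or below. The epithelial markers KRT8, KRT18 and KRT19 were present in each library (97.4 to 1113 FPKM), with KRT8 at 1040 to 1105 FPKM untreated and 531 to 570 FPKM after rhCYGB, and KRT19 at 170 to 177 and 97.4 to 106 FPKM. EPCAM was listed at 0 in every library and CDH1 did not exceed 0.0088 FPKM. The leukocyte, endothelial and acinar markers PTPRC, PECAM1, PRSS1 and CPA1 were also listed at 0. The mesenchymal marker VIM was at 3457 to 3483 FPKM untreated and 4385 to 4681 FPKM after rhCYGB. COL1A1 did not exceed 0.032 FPKM and ACTA2 was at 2.78 to 3.17 FPKM untreated and 2.44 to 2.54 FPKM after rhCYGB. COL1A2, a fibroblast or stellate marker, went from 25.3 to 27.7 FPKM in untreated libraries to 1.02 to 1.32 FPKM after rhCYGB; the part of these marker changes in the results was not tested. Mitochondrial genes took 7.42 to 7.85% of untreated counts and 6.74 to 7.13% of rhCYGB counts.

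Sequences are shown for the start of an exon held by the CCNT2 transcript with the clearest rise, and for 3 promoters. The promoters are those of CDK7 and CCNT2, the members with the largest rises, and of CDK12, which was not called. Coordinates and letters are of GRCh38. Transcripts listed as mRNA in the deposited table are called coding here, and those listed as misc_RNA are called non-coding. CCNT2 variants c and f, both listed as misc_RNA, share an exon of 87 bases that the coding variant b lacks. By deposited length, variant c is 87 bases longer than the coding variant a. The coding variants d and e, at 7014 and 7007 bases, are also longer than variant b, at 6920 bases. Whether the coding variants a, d and e hold the exon was not examined, so it is not known to be particular to c and f. The exon lies at chr2:134945889-134945975 on the plus strand and is exon 6 of variants c and f in GENCODE. Both are annotated there as targets of nonsense-mediated decay, the pathway that degrades RNA with an early stop codon. The first 29 bases of the exon hold 26 coding bases and then, in capitals, the stop codon.
CCNT2 exon of variants c and f: atctttgggggatagcaagaaacattTGA

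The promoters are from RefSeq, on GRCh38.p14, and run 5′ to 3′ from 250 bases before the start of the gene to 50 after it. Capitals mark matches to the motifs searched on both strands, which were the core promoter motif TATAAA, the GC box GGGCGG, the cyclic AMP response element TGACGTCA, the ETS motif CCGGAAGT, the E2F motif TTTNGCGC, the palindromic NRF1 motif and the box named after its letters CCAAT. Matches of the motifs did not exclude overlaps with one another. The CDK7 promoter shown lies at chr5:69234636-69234935, that of CCNT2 at chr2:134918572-134918871 and that of CDK12 at chr17:39461236-39461535, all on the plus strand. CDK7 has a second, overlapping promoter at chr5:69234545-69234844, which is not shown.
CDK7 promoter: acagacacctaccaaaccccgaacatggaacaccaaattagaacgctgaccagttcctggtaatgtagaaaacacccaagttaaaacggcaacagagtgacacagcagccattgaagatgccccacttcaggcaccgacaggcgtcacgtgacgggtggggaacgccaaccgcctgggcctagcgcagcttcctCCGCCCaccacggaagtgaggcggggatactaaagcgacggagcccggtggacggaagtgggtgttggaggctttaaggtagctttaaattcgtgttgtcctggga
CCNT2 promoter: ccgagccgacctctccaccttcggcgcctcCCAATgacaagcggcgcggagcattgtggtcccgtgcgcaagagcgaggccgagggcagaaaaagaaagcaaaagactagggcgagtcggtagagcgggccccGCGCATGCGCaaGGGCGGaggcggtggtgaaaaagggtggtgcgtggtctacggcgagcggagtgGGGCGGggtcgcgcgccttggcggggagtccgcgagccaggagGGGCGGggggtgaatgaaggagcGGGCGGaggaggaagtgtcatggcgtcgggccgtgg
CDK12 promoter: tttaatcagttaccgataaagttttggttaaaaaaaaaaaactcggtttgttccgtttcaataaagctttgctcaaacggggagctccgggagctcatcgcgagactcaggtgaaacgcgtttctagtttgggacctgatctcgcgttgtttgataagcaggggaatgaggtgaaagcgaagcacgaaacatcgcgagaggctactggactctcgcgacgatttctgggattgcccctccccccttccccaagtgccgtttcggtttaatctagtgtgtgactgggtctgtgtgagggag

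Of the 10 genes, 7 rose after rhCYGB (CDK7, CCNH, CDK9, CCNT1, CCNT2, CDK8 and CDK13), 0 fell and 3 were not called (CDK19, CCNC and CDK12), by edgeR's quasi-likelihood test at a Benjamini-Hochberg adjusted p under 0.05 over all genes. Against that count stands a background of 77.6% of the 14728 genes tested, 39.0% higher and 38.6% lower, so that the share called matches the whole table and its direction does not. The median log2 fold change was 0.62 over the 10 genes and -0.0046 over all genes. None reached the 2-fold limit as well (0 of 10 with edgeR, DESeq2 and limma, against a background of 27.1%, 12.4% higher and 14.7% lower), although 7 had an unadjusted p under 0.05. CDK7 and CCNT2 lay near that limit: the count ran from 0 to 2 when each library was left out in turn, and was 2 (CDK7 and CCNT2) without rhCYGB replicate 2. Without untreated replicate 3 only CCNT2 passed it, at a log2 fold change of 1.00, with CDK7 at 0.98. The groups did not overlap in normalised count for the same 7 genes, where 79.5% of all genes tested separated in this way.

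**Figure D1:**
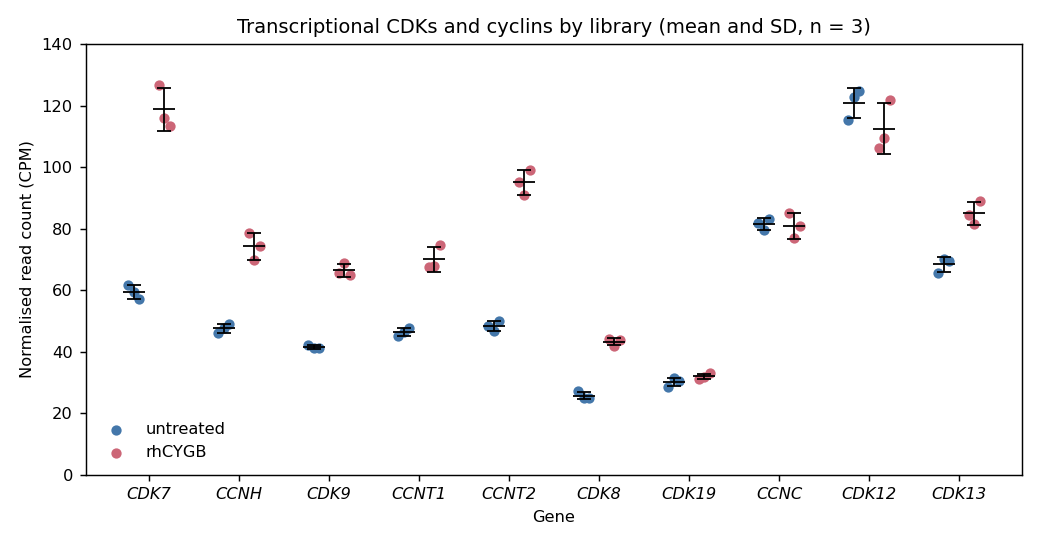
Normalised read counts (CPM, with TMM scaling) of the 10 genes in each untreated (blue) and rhCYGB (red) library, with the mean and SD of 3 libraries. The rhCYGB points lie above all untreated points for 7 genes and overlap them for CDK19, CCNC and CDK12.

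CDK7, the kinase of the CDK-activating complex, showed the largest rise of the 10. It had 61.6, 59.5 and 57.2 CPM in the untreated libraries and 127, 116 and 113 CPM after rhCYGB. The highest untreated library thus lay well below the lowest rhCYGB library. The mean went from 59.4 ± 2.17 to 119 ± 7.08 CPM (SD, n = 3), a log2 fold change of 1.00 (SE 0.049) with an edgeR adjusted p of 4.96e-11. Its place in the whole table was at percentile 87.4 of the log2 fold changes.

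CCNH, the cyclin partner of CDK7, had 46.1, 47.8 and 49.1 CPM in the untreated libraries and 78.5, 69.8 and 74.4 CPM after rhCYGB. The groups were separate, and the log2 fold change was 0.64 (SE 0.051, edgeR adjusted p = 1.60e-08). The deposited span of CCNH overlaps those of RASA1 and LOC644285, and whether counting used strand was not stated. RASA1 itself rose by a log2 fold change of 0.30. MNAT1, which assembles CDK7 with cyclin H, had 32.6, 32.2 and 34.8 CPM untreated and 46.8, 50.05 and 41.7 CPM after rhCYGB, a log2 fold change of 0.47 (SE 0.065, edgeR adjusted p = 7.51e-06). All 3 subunits of the kinase thus rose. The 7 TFIIH subunits listed with MNAT1 were divided, so that of these 8 genes 5 rose and 3 fell, none by 2-fold, with a median log2 fold change of 0.31. These list counts, like those of the lists that follow, stand against 39.0% of all genes higher and 38.6% lower.

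CDK9, the kinase of P-TEFb, had 42.2, 41.1 and 41.1 CPM in the untreated libraries. After rhCYGB it had 65.7, 68.7 and 64.8 CPM. Untreated libraries differed among themselves far less than the groups did. The log2 fold change was 0.68 (SE 0.046, edgeR adjusted p = 2.13e-09).

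CCNT1, the cyclin that with CDK9 forms the most studied P-TEFb, had 45.1, 46.4 and 47.8 CPM untreated and 67.6, 68.0 and 74.8 CPM after rhCYGB. The rise was of the size of that of its kinase, at a log2 fold change of 0.59 (SE 0.051, edgeR adjusted p = 3.71e-08). CCNT2, the alternative cyclin, had 48.3, 46.6 and 49.97 CPM untreated and 95.2, 90.8 and 99.1 CPM after rhCYGB. It almost reached the 2-fold limit, with a log2 fold change of 0.98 (SE 0.047, edgeR adjusted p = 4.12e-11) at percentile 87.0 of all genes.

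CDK8, a Mediator kinase, had 27.1, 25.1 and 25.0 CPM untreated and 44.1, 41.9 and 43.9 CPM after rhCYGB. The 3 rhCYGB libraries lay close together and above all untreated ones. The log2 fold change was 0.75 (SE 0.054, edgeR adjusted p = 4.67e-09). Its paralog CDK19 had 28.6, 31.3 and 30.5 CPM untreated and 31.2, 31.8 and 32.9 CPM after rhCYGB. The groups overlapped, and the log2 fold change of 0.08 was not called (95% interval -0.035 to 0.20, edgeR adjusted p = 0.180). The deposited span of CDK19 overlaps AMD1, which fell by 0.86 on the log2 scale, and 2 further listed genes.

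CCNC, the cyclin shared by CDK8 and CDK19, did not follow CDK8. It had 81.9, 79.4 and 83.2 CPM untreated and 85.2, 76.8 and 80.8 CPM after rhCYGB. The rhCYGB values lay on both sides of the untreated ones, with a log2 fold change of -0.0096 (95% interval -0.11 to 0.089, edgeR adjusted p = 0.859). The other subunits of the kinase module mostly rose. MED12, which activates the kinase, and MED13, which joins the module to Mediator, had log2 fold changes of 0.64 and 0.32 (edgeR adjusted p = 5.28e-08 and 2.46e-05). MED13L, the paralog of MED13, rose more, from 43.4 to 44.1 CPM untreated to 79.2 to 93.9 CPM after rhCYGB, a log2 fold change of 0.96. MED12L was low, at 43 to 78 counts, and was not called at a log2 fold change of 0.36 (edgeR adjusted p = 0.235). Of the 4 listed subunits 3 thus rose and 0 fell.

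CDK12 had 115, 123 and 125 CPM untreated and 106, 109 and 122 CPM after rhCYGB. Its untreated CPM was the highest of the 10, but CPM is not divided by transcript length. The third rhCYGB library reached into the untreated range. The log2 fold change of -0.10 was not called (95% interval -0.21 to 0.0046, edgeR adjusted p = 0.0744). CDK13, its paralog, had 65.6, 70.1 and 69.4 CPM untreated and 84.4, 81.5 and 89.1 CPM after rhCYGB. This was the smallest of the 7 rises, with a log2 fold change of 0.31 (SE 0.047, edgeR adjusted p = 1.83e-05), and it was not called by limma on log2(FPKM + 1), at 0.14. CCNK, the cyclin K that both kinases bind, had 29.2, 29.6 and 33.7 CPM untreated and 60.3, 64.9 and 66.5 CPM after rhCYGB. It passed the 2-fold limit with a log2 fold change of 1.05 (SE 0.061, edgeR adjusted p = 3.42e-10).

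**Figure D2:**
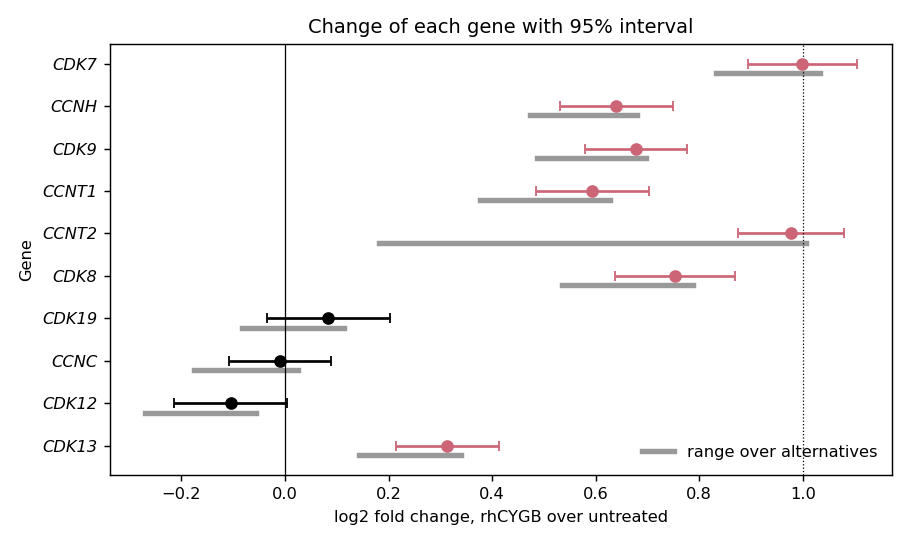
Fitted log2 fold change of each of the 10 genes (rhCYGB over untreated) with its 95% interval, in red where the adjusted p was under 0.05, and below it a grey bar for the range over 17 alternative settings. CDK7 and CCNT2 lie near the dotted 2-fold line, and the long bar of CCNT2 reaches down to 0.18, its value when non-coding transcripts were left out.

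The scale of the fold changes depended on how libraries were made comparable. Scaling by total counts moved the median of all genes from -0.0046 to -0.17, and upper-quartile scaling moved it to -0.15. With total counts, CDK12 and CCNC were called lower, at log2 fold changes of -0.27 and -0.18 (edgeR adjusted p = 2.85e-04 and 0.0018). Relative to the median of all genes on that scale, the same values were -0.10 for CDK12 and -0.0059 for CCNC. The 7 rises stayed called with total counts, from 0.15 for CDK13 to 0.83 for CDK7. CDK12 was called lower under 9 of 17 alternatives and CCNC under 4, and CDK19 turned to values between -0.058 and -0.084, not called, under 4.

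Levels of different genes were set side by side in FPKM. In untreated cells CDK7 was the highest, at 39.3 ± 1.09 FPKM, followed by CCNC at 34.9 ± 1.08, CCNH at 23.8 ± 3.09, CDK9 at 15.6 ± 0.174 and CDK12 at 13.6 ± 0.647 FPKM (SD, n = 3). Each of these stood apart from the next in all 3 libraries. The lower part of the order was closer. CDK13 (8.05 FPKM) overlapped CDK8 (7.82 FPKM), CCNT2 (6.49 FPKM) overlapped CCNT1 (6.41 FPKM), and CDK19 was the lowest at 4.41 ± 0.236 FPKM. After rhCYGB, CDK7 was still the highest at 71.1 ± 4.59 FPKM and CDK19 the lowest at 4.15 ± 0.179 FPKM. CCNH, at 38.1 ± 3.10 FPKM, then lay above CCNC, at 31.0 ± 2.02 FPKM. CDK8 (11.8 FPKM), CDK12 (11.3 FPKM) and CCNT2 (11.2 FPKM) overlapped their neighbours in that order, nor could CDK13 (9.03 FPKM) from CCNT1 (8.64 FPKM).

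Ratios of FPKM within a library compare paralogs and partners without any scaling between libraries. For the 6 pairs compared, the two-sided exact permutation test of 3 against 3 libraries could not give a p below 0.1. CDK8 over CDK19 was 1.98, 1.66 and 1.71 untreated and 2.96, 2.77 and 2.79 after rhCYGB, so that all rhCYGB ratios exceeded all untreated ones. The difference of the mean log2 ratios was 0.68 (SE 0.084, exact p = 0.1, adjusted p = 0.15 over the 6 pairs). CDK12 over CDK13 went the other way, from 1.68, 1.68 and 1.71 to 1.20, 1.32 and 1.25, a log2 difference of -0.43 (SE 0.043). CCNT1 over CCNT2, close to 1 untreated, went from 0.957, 1.02 and 0.983 to 0.743, 0.785 and 0.790, a log2 difference of -0.36 (SE 0.040). The CCNT2 level pools its non-coding variants c and f. Coding CCNT2 transcripts had 1641, 1751 and 1692 counts untreated and 1883, 1366 and 1838 after rhCYGB. CCNT1, with coding transcripts only, had 1682, 2081 and 1951 counts untreated and 2510, 2262 and 2757 after rhCYGB. In coding counts the ratio of CCNT1 to CCNT2 thus rose instead, with the groups apart. CDK8 over CCNC went from 0.224 ± 0.010 to 0.381 ± 0.010 (SD, n = 3), a log2 difference of 0.77 (SE 0.045). In these 3 pairs also the groups did not overlap (exact permutation p = 0.1, adjusted p = 0.15). The ratio of CDK9 to CCNT1 was 2.43 ± 0.103 untreated and 2.58 ± 0.203 after rhCYGB, with overlapping groups (exact permutation p = 0.3, n = 3, adjusted p = 0.3). The ratio of CDK7 to its cyclin CCNH depended on the unit. In FPKM it was 1.67 ± 0.200 and 1.87 ± 0.077, with overlapping groups and a log2 difference of 0.17 (exact permutation p = 0.3, n = 3, adjusted p = 0.3). In read counts, not divided by length, it was 1.33, 1.25 and 1.17 untreated and 1.61, 1.66 and 1.52 after rhCYGB, with groups apart and a log2 difference of 0.36 (exact permutation p = 0.1, adjusted p = 0.12). The log2 differences of the other pairs were close in both units.

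**Figure D3:**
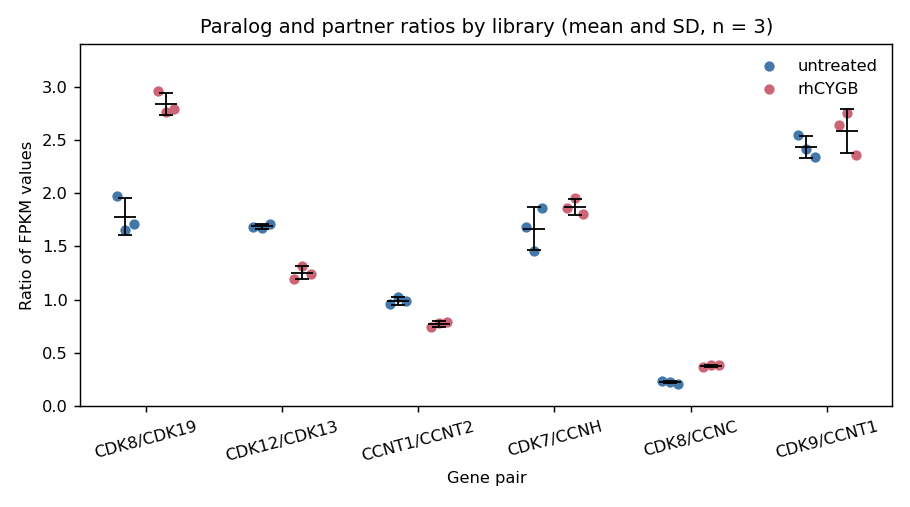
Ratio of FPKM values of 6 gene pairs in each untreated (blue) and rhCYGB (red) library, with the mean and SD of 3 libraries. The groups are apart for CDK8/CDK19, CDK12/CDK13, CCNT1/CCNT2 and CDK8/CCNC and overlap for CDK9/CCNT1 and, on this FPKM scale, CDK7/CCNH. The CCNT2 values pool coding and non-coding transcripts, and in coding counts alone CCNT1/CCNT2 went the other way.

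The gene counts pool 42 listed transcripts of the 10 genes. The assembler divides reads among transcripts that share exons, and the transcript counts varied far more between replicates than the gene counts (common dispersion 0.483 against 0.0030). Of 35 transcripts tested, 10 were called, 9 higher and 1 lower, against a background of 29.9% of 32577 transcripts, 15.1% higher and 14.8% lower. With the 2-fold limit 6 rose and 1 fell, against a background of 16.9%, 8.62% higher and 8.32% lower. The members' share called in either direction was near that of the whole table, but their direction was uneven. Calls that were lost when a library was left out are given as such.

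The rise of CCNT2 lay mostly in its non-coding transcripts. Variant f, the longer of the non-coding pair, had 159, 326 and 298 counts untreated and 1316, 1465 and 1494 counts after rhCYGB. Every rhCYGB library lay far above the highest untreated count. Its log2 fold change was 2.59 (SE 0.25, edgeR adjusted p = 0.0010), and the adjusted p stayed at or below 0.0061 when each library was left out in turn. Variant c, with the same added exon, had 0, 11 and 48 counts untreated and 336, 190 and 321 counts after rhCYGB, and did not pass the test (log2 fold change 3.95, edgeR adjusted p = 0.105).

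Variants a and b, the main coding transcripts, together had 1624, 1724 and 1657 counts untreated and 1545, 1192 and 1240 counts after rhCYGB. Scaled by library size these were 40.9 ± 2.57 and 37.0 ± 4.11 CPM (SD, n = 3), with overlapping groups. Variant a had a log2 fold change of -0.05 (edgeR adjusted p = 0.892) and variant b of -0.47 (edgeR adjusted p = 0.0564). The coding variants d and e rose from 1 to 23 counts to 75 to 330 counts, with log2 fold changes of 4.60 and 3.34 (edgeR adjusted p = 0.0196 and 0.0093). The call of variant d was lost when any of 4 libraries was left out, whereas that of variant e held in each case.

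Variants c and f together took 8.83, 16.1 and 16.98% of CCNT2 counts in untreated libraries and 46.7, 54.8 and 49.7% after rhCYGB. The highest untreated share was thus under the lowest rhCYGB share by a wide margin, and the means were 14.0 ± 4.48% and 50.4 ± 4.07% (SD, n = 3, exact permutation p = 0.1, the smallest that 3 against 3 allow, adjusted p = 0.2 over 3 genes). The other members with non-coding transcripts in the table, CDK7 and CCNH, had shares of 0.986% and 2.02% untreated and of 2.46% and 5.27% after rhCYGB, with overlapping groups and an exact permutation p of 0.2 in both. Variant f is 406 bases longer than variant b, which are the 87 bases of the exon shown above and 319 bases by which the next exon is extended, at chr2:134946101-134946465. The antisense gene CCNT2-AS1 had 67, 58 and 43 counts untreated and 43, 33 and 36 counts after rhCYGB.

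When the gene test was rerun on coding transcripts alone, an alternative chosen after seeing the data, the log2 fold change of CCNT2 was 0.18 (SE 0.075, edgeR adjusted p = 0.0459) in place of 0.98. A gap of this size or more in either direction, 0.80, occurred in 97 of 12482 genes (0.777%). Genes without non-coding transcripts are among the 12482 and could hardly show a gap. The share among the genes that have such transcripts was not computed. Of the other members only CDK7 and CCNH also have non-coding transcripts, and they had 0.97 and 0.59 in place of 1.00 and 0.64. The rest have coding transcripts only, so their counts were the same and their values could move only through scaling and the shared fit. Among these, CDK9 was at 0.68, CCNT1 at 0.59, CDK8 at 0.75 and CDK13 at 0.31. Across the table, non-coding transcripts of protein-coding genes passed the 2-fold limit upward in 304 of 2558 cases (11.9%) and downward in 84 (3.28%), and the figure for coding transcripts upward was 8.34%.

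**Figure D4:**
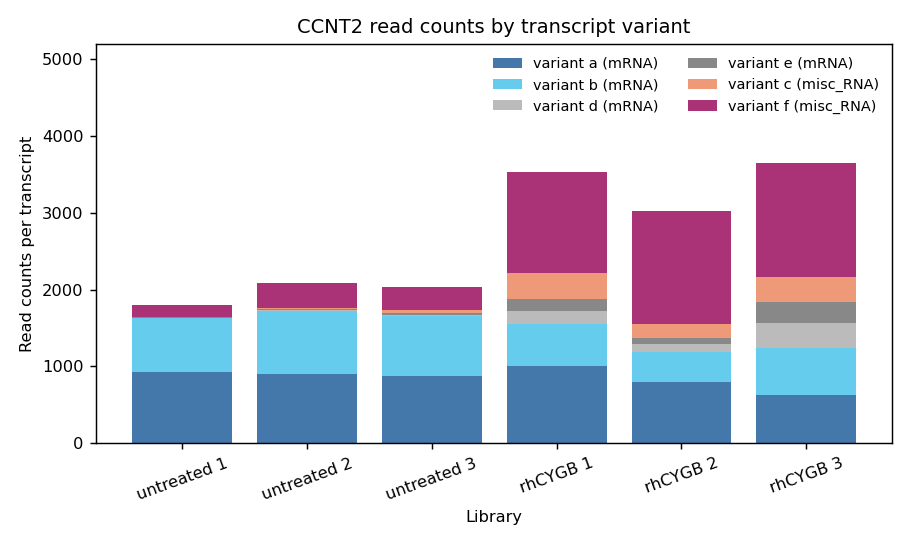
Read counts of CCNT2 in each of the 6 libraries, stacked by transcript variant, with the coding variants a, b, d and e below and the non-coding variants c and f on top. The a and b segments hold 1192 to 1724 counts in every library, while the c and f segments hold 159 to 346 untreated and 1652 to 1815 after rhCYGB.

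Within CDK7, a minor transcript had the largest change that was called. Variant 3 had 70, 43 and 75 counts untreated and 674, 663 and 433 counts after rhCYGB. The groups were far apart, and the log2 fold change was 3.33 (SE 0.38, edgeR adjusted p = 0.0018), and called whichever library was left out. Its share of CDK7 counts went from 2.63% to 13.9%. The main transcript, variant 1, had 1569, 2010 and 1544 counts untreated and 2499, 2181 and 2903 after rhCYGB, a log2 fold change of 0.68 (edgeR adjusted p = 0.0045), while its share went from 70.0% to 59.7%. Variant 7 was not called, at a log2 fold change of 0.91 (edgeR adjusted p = 0.0713).

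For CCNH, variant 1 had 284, 472 and 118 counts untreated and 1053, 948 and 836 after rhCYGB. The untreated libraries differed widely among themselves. The log2 fold change of 1.84 was called (edgeR adjusted p = 0.0363), but not when untreated replicate 1 or any of the rhCYGB libraries was left out, at 1.79 to 1.95. Variants 2 and 3 of CCNH, at log2 fold changes of 0.29 and -0.46, were not called.

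CDK8 variant 2 had 207, 219 and 227 counts untreated and 295, 439 and 571 after rhCYGB, a log2 fold change of 1.11 (edgeR adjusted p = 0.0336) that was lost without any library except rhCYGB replicate 1. Variant 1 of CDK8 was not called at 0.30. Variant 3, coding in the deposited table but a target of nonsense-mediated decay in GENCODE, had 31, 90 and 68 counts untreated and 219, 349 and 118 after rhCYGB. It narrowly missed the threshold at 2.04 (edgeR adjusted p = 0.0511). CDK19 variant 3 was the only member transcript called lower, from 12, 237 and 111 counts untreated to 2, 0 and 0 after rhCYGB. Its call (edgeR adjusted p = 0.0293) was lost when any library but untreated replicate 1 was left out, and the main CDK19 transcript, variant 1, had a log2 fold change of 0.10 that was not called.

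CDK9 had a single transcript, with a log2 fold change of 0.60 in the transcript fit. For CCNT1, variant a had a log2 fold change of 0.55 that was called (edgeR adjusted p = 0.0417), but not when any library except rhCYGB replicate 1 was left out (0.45 to 0.60, edgeR adjusted p = 0.0854 to 0.126). Variant b was not called at 0.38. Both transcripts of CDK12 (-0.22 and -0.14) and both of CDK13 (0.15 and 0.31) missed the threshold, as did the CCNC transcripts that hold at least 10% of that gene's counts, so that for CDK13 the rise was called over the gene and in neither transcript.

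The factors that hold P-TEFb inactive or release it moved in both directions. HEXIM1, which inhibits CDK9 within the 7SK complex, had 137, 139 and 147 CPM untreated and 66.6, 67.2 and 65.9 CPM after rhCYGB. Every rhCYGB library lay far below the lowest untreated one, and the log2 fold change was -1.08 (SE 0.041, edgeR adjusted p = 2.23e-12). SRSF2, a splicing factor that takes part in the release from 7SK, fell by 1.14 on the log2 scale. LARP7, which protects the 7SK RNA, was not called at 0.0059 (edgeR adjusted p = 0.926). Of the 9 genes in this list 2 rose, 5 fell and 2 were not called, with a median log2 fold change of -0.15. Among the rises was the 7SK RNA itself, at only 72 to 140 counts in libraries prepared from mRNA, so its level is poorly measured here.

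The super elongation complex, a scaffold that carries P-TEFb with elongation factors, had 6 genes that rose, 2 that fell and 1 not called among 9 tested of 10 listed. AFF4, its main scaffold, rose from 140 to 143 CPM untreated to 370 to 391 CPM after rhCYGB (log2 fold change 1.42). AFF3 and EAF1 rose by 1.79 and 1.49 on the log2 scale, and ELL3 fell by 1.75, from a low 1.25 CPM. The median was 0.66.

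Of 12 polymerase subunits 3 rose, 8 fell and 1 was not called, with a median log2 fold change of -0.29, where 39.0% of all genes rose and 38.6% fell. POLR2A, the largest subunit, whose tail these CDKs phosphorylate, had 148, 145 and 147 CPM untreated and 63.6, 68.0 and 80.7 CPM after rhCYGB, a log2 fold change of -1.05 (SE 0.065, edgeR adjusted p = 6.85e-10). POLR2H rose by 1.48 on the log2 scale and POLR2L fell by 1.35. Of 7 phosphatases of the polymerase tail 1 rose, 4 fell and 2 were not called, none by 2-fold, with a median of -0.34.

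Of 17 factors of pausing and elongation 7 were higher, 8 lower and 2 not called, near the background of 39.0% higher and 38.6% lower, and their median log2 fold change was -0.09 (-0.26 with total counts). TCEA1, which rescues backtracked polymerase, rose from 140 to 150 CPM to 517 to 573 CPM, a log2 fold change of 1.92. NELFA, of the pausing factor NELF, and CDC73, of the PAF1 complex, rose by 1.39 and 1.08 on the log2 scale, while WDR61, also of the PAF1 complex, fell by 1.09. In Mediator outside the kinase module 10 genes were higher, 8 lower and 8 not called of 26. MED8, MED15 and MED19 rose by 1.29, 1.23 and 1.00 on the log2 scale and MED31 fell by 2.32. Its median of 0.05 changed sign to -0.09 with upper-quartile scaling.

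The other CDKs and cyclins of transcription and splicing rose in 7 of 7 cases, with a median log2 fold change of 0.62. Beside CCNK, CCNL1, a cyclin of the splicing-linked CDK11, passed the 2-fold limit, from 87.8 ± 2.40 to 192 ± 4.48 CPM (SD, n = 3). CDK11A and CDK11B are near-identical copies, so that reads could be divided wrongly between them. The CDKs and cyclins of the cell cycle moved the other way. Of 12 tested, 10 fell and 2 rose, 7 and 1 of them by 2-fold, with a median of -1.33. CCNE2, CCNA2 and CDK2, which act at the start of and through S phase, had log2 fold changes of -2.94, -1.65 and -1.53, and CCND2 rose by 3.16 from 1.19 ± 0.29 CPM. Of 4 DNA repair genes whose expression is known to need CDK12, 4 fell, 3 of them by 2-fold, with FANCI at -1.29 and FANCD2 at -1.23, while CDK12 itself was not called. Whether the cell cycle genes' fall has a part in any of these results was not tested.

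**Figure D5:**
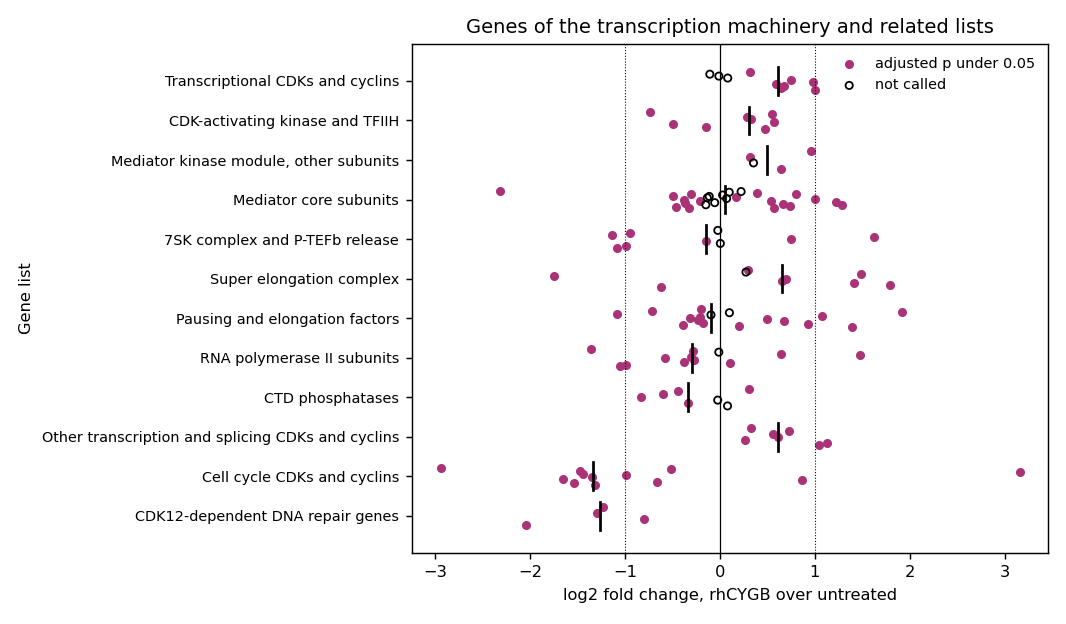
Log2 fold change (rhCYGB over untreated) of the 10 genes and of the genes of 11 related lists, filled where the adjusted p was under 0.05 and open where not called, with a black bar at each median and dotted lines at 2-fold. The medians are 0.62 for the transcriptional CDKs and cyclins, 0.62 for the other transcription and splicing CDKs and cyclins and -1.33 for the cell cycle CDKs and cyclins.

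In the promoters, all 10 genes were matched, with 16 promoters in all. No member promoter held TATAAA, found in 11.5% of the 35116 promoters in the table. The GC box GGGCGG was found in 11 of 16 member promoters, of 8 genes, and in 45.0% of all promoters. Promoters of the same gene can overlap and share a match, as those of CDK7 do, so these matches are not all separate sites. CCNC and CDK12 lacked the GC box, whereas CDK19, also not called, had it. The ETS motif CCGGAAGT was found for CDK9 and CCNT1 (4.14% of all promoters), and the NRF1 motif for CCNT2 (1.24%), as its sequence above shows. The motif CCAAT was found for 4 genes (34.6%). The response element TGACGTCA (1.85%) and the E2F motif (1.79%) were found for none.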

How the data were processed

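Total RNA of MIA PaCa-2 cells was made into TruSeq Stranded mRNA libraries. Per the labels, reads were processed with FastQC 0.11.7, HISAT2 2.1.0 and StringTie 2.1.3b. The notes name a mouse build (mm10), while the deposited symbols are human, and 9 of 10 members' deposited positions do not overlap their GRCh38 positions, so those positions were used only to find overlaps between deposited gene spans. The authors deposited read counts, not normalized, and FPKM, per gene and transcript; how StringTie's estimates became whole counts is not given in the sources used here. The deposited TPM columns (6 in each table) were not used here.

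Counts were fitted with edgeR 4.0.16 (R 4.3.3; filterByExpr, TMM, quasi-likelihood test, no block), with p adjusted over 14728 genes or 32577 transcripts. Changed means adjusted p under 0.05 and at least 2-fold. CPM used TMM sizes. Alternatives used DESeq2 1.42.0, limma 3.58.1 on log2(FPKM + 1) and log2(FPKM + 0.1), other scalings and filters, a replicate block and each library left out. On simulated counts of 14728 genes edgeR called 180 of 198 changed genes tested and 32 of 14306 others. The simulation changed 200 genes, each by at least 2-fold, whereas 77.6% of genes were called in the data. These rates therefore need not hold for the data. Ratios used exact permutation.

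All members were named, with direct partners and up to 4 genes per list past 2-fold by size, and transcripts holding 10% of their gene's counts or called at 2-fold. Some list genes are not reported here by name. Members and lists were chosen with earlier results of these data known. CCNT2 exons are from GENCODE v29.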

Additional observations from a re-analysis of the deposited data

How the results depend on the processing

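The number of genes changed at 2-fold was 3998 and ran from 3220 (coding transcripts only, chosen after seeing the data) to 4305 under the other settings, except for 1977 with limma on log2(FPKM + 1) and 11427 with no limit on the fold. The number of changed members was 0. It was 1 (CDK7) without the filter on low counts, 7 with no limit on the fold, and 0 to 2 when each library was left out. The number of changed member transcripts was 7, but 13 with DESeq2 and 4 to 5 when each library was left out. Of 170 gene values of members under alternatives, 149 kept their direction and side of the threshold, 13 of CDK12 and CCNC became called, 2 of CDK13 (0.14 and 0.16, limma) lost the call, and 6 uncalled values changed sign. Those were CDK19 at -0.058 (upper quartile), -0.081 (total counts), -0.069 and -0.084 (limma with pseudocounts 1 and 0.1), and CCNC at 0.0079 without untreated replicate 3 and 0.025 without rhCYGB replicate 2, in a range of -0.039 to 0.025 with libraries left out. The cause was not tested.

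Same-numbered libraries did not deviate together (correlations -0.048, 0.0072 and 0.0055), so no effect shared by number was seen. With 3 libraries per group this cannot show whether same-numbered libraries were handled together, which the labels do not state. With a replicate block 3978 genes, 0 members and 4 member transcripts were changed, and not every library correlated best with its own number. Counts per library limit the transcripts more than the genes, since the split of reads between isoforms is estimated.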
